A study of Arabidopsis thaliana with 16 samples.

Results

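Seed oil breakdown and the glyoxylate cycle were followed through 10 Arabidopsis thaliana genes, SDP1, LACS6, LACS7, ACX1, ACX2, MFP2, KAT2, ICL, MLS and PCK1. They were picked by gene identifier, out of 27444 protein-coding nuclear genes in the gene table, for their known place in the pathway. All 10 identifiers carried the named symbol, or it as a synonym, in that table. Of the 10, 8 appeared in at least 1 of 3 deposited RNA tables, 2 appeared in all 3 (LACS6 and KAT2), and 2 (ACX1 and MFP2) appeared in none. The RNA came from whole seedlings of 3 lines, each with 2 libraries, all 3 days old, dark-grown at 24 °C and held in air for 4 h. Each line was in the ein3-1eil-1 background, a double mutant of the ethylene-response transcription factor EIN3 and its relative EIL1. By its name, EIN2C-EIN3DB joins the carboxyl-terminal part of the ethylene signalling protein EIN2 to the DNA binding domain of EIN3. EIN2C-EIN3DBK245N carries a substitution in the EIN3 part, and EIN2S645A is EIN2 with a substitution (the series text calls it EIN2C). EIN2C-EIN3DB seedlings of the same age also gave chromatin, precipitated with an EIN2 antibody and sequenced (ChIP). In ein3-1eil-1 there were 2 libraries after 4 h of 10 ppm ethylene and 2 after air, and in wild-type Col-0 there was 1 titled ethylene and 1 titled air. No label names the promoters of the transgenes or the number of independent transgenic lines. No ChIP library from untransformed seedlings is among the samples.

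Arabidopsis seeds store oil as triacylglycerol in oil bodies, and seedlings live on it until they photosynthesise. The lipase SDP1 frees fatty acids, which enter the peroxisome and are joined to coenzyme A there by LACS6 and LACS7. The acyl-CoA oxidases ACX1 and ACX2, the multifunctional protein MFP2 and the thiolase KAT2 then shorten them by beta-oxidation and release acetyl-CoA. ICL (isocitrate lyase) and MLS (malate synthase) are the enzymes particular to the glyoxylate cycle, which turns acetyl-CoA into organic acids. PCK1, phosphoenolpyruvate carboxykinase, opens the route from these acids to sugar. In seedlings kept in the dark this oil feeds the growth of the hypocotyl.

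The RNA values are FPKM, which divides fragment counts by transcript length and by library size, so genes of different length can be set side by side within 1 line. The deposited tables give 1 FPKM value for each line with its libraries pooled, and a log2 fold against Col. No spread between libraries can therefore be given, and no test between lines was run. A gene was listed where the authors' fold was at least 2 and the q-value under 0.05, with a level limit of 1 FPKM, so a gene that is not listed has no value here, and its level and direction are not known. No label says how Col was treated, and no untransformed ein3-1eil-1 library is among the samples, so the transgene, its substitution and the double mutation cannot be told apart. EIL1 was lower in all 3 lines, at 10.7, 9.33 and 7.89 FPKM and log2 folds of -2.86, -2.65 and -2.93 in EIN2C-EIN3DB, EIN2C-EIN3DBK245N and EIN2S645A in the authors' deposited tables. EIN3, part of which the fusions encode by their names, was listed as lower in EIN2C-EIN3DB and EIN2S645A, at 38.2 and 7.88 FPKM. Its log2 folds there were -2.06 and -3.97 in the authors' deposited tables, and it was not listed in EIN2C-EIN3DBK245N. Whether fragments of the transgene count toward EIN3 was not tested. EIN2, part of which the transgene encodes, was lower in EIN2C-EIN3DB, at 43.6 FPKM and a log2 fold of -1.44 in the authors' deposited table, and was not listed in the other lines. The ChIP libraries kept between 3743192 and 10515608 tags after duplicates were removed, with a redundant share of 0.2 to 0.3 in ein3-1eil-1 and of 0.56 and 0.61 in Col-0. Labels and titles conflict in Col-0, where the agent field says ethylene for the library titled air and for its input, and the genotype field of the other input says ein3-1eil-1. The titles were followed.

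The genes of the pathway did not move as 1 block against Col. LACS6, LACS7 and KAT2, the activating enzymes and the thiolase, were higher wherever they were listed. SDP1, ACX2, ICL, MLS and PCK1 were lower wherever they were listed. In EIN2C-EIN3DB 3 of the 10 genes were higher and 2 lower in the authors' deposited table, where 9.93% and 9.7% of all protein-coding nuclear genes were called. In EIN2C-EIN3DBK245N 3 were higher and 1 lower, beside 6.41% and 6.33% of genes. In EIN2S645A 2 were higher and 5 lower, beside 11.8% and 13.9% of genes. Those percentages are taken over all genes, expressed or not. Among the 9647 protein-coding nuclear genes listed in any of the 3 tables, 28.2% and 27.6% were called higher and lower in EIN2C-EIN3DB, 18.2% and 18.0% in EIN2C-EIN3DBK245N, and 33.7% and 39.5% in EIN2S645A. On that base 8 members remain, since ACX1 and MFP2 are in no table. Whether the counts of so few genes stand apart from these shares was not tested, so the values below describe single genes. In whole seedlings, fewer cells of a type and less RNA per cell cannot be told apart. At a fold of at least 4, EIN2C-EIN3DB had 0 members higher and 0 lower (2.88% and 1.67% of genes), EIN2C-EIN3DBK245N 1 and 0 (1.59% and 1.27%), and EIN2S645A 0 and 3 (5.23% and 4.18%). All 3 comparisons are against Col, so the folds of the lines are given side by side with no test of their difference.

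**Figure D1:**
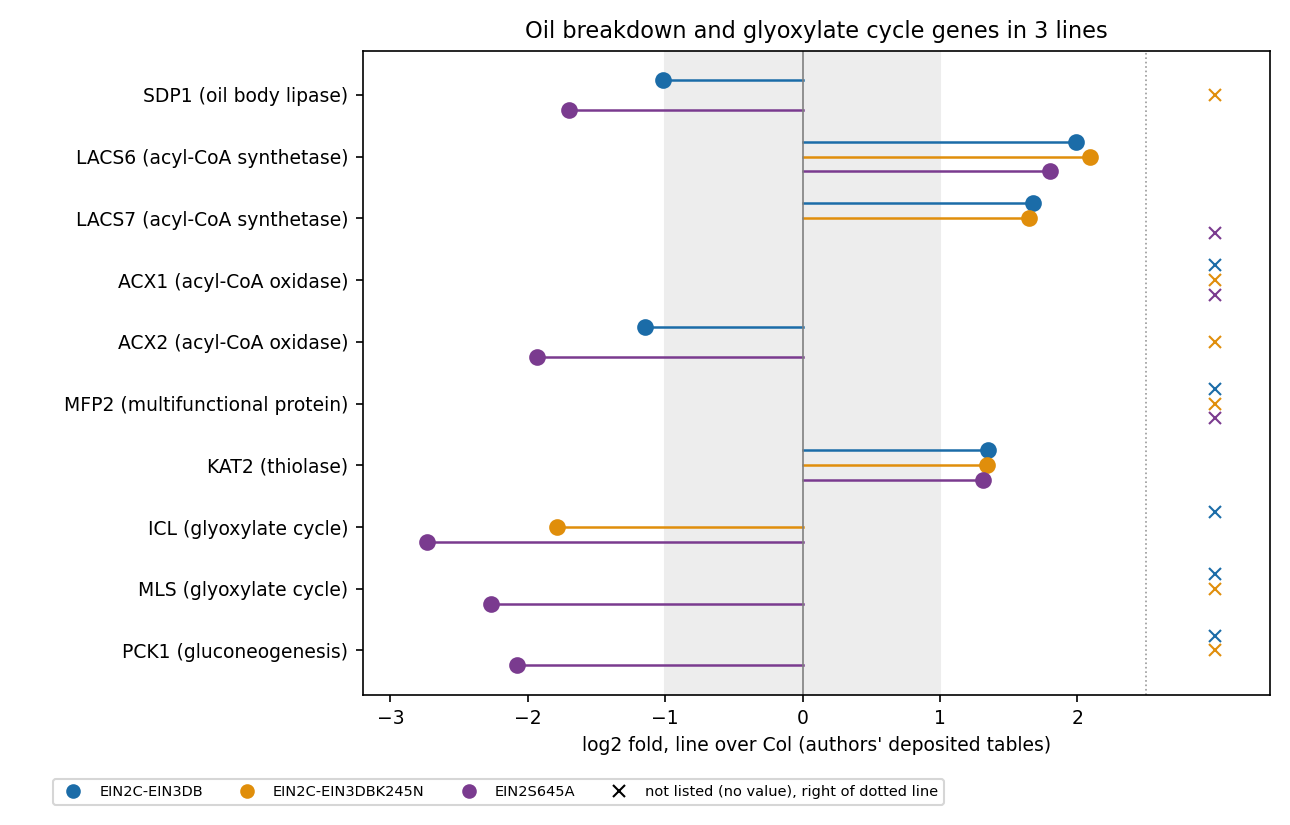
Log2 fold of each of the 10 genes against Col, from the authors' deposited tables, with 1 point per line (colour) and the genes in pathway order from top to bottom. The grey band marks folds under 2, which the tables do not list. Crosses right of the dotted line mark genes with no value. LACS6, LACS7 and KAT2 lie right of the band in each line that lists them, between 1.31 and 2.09, and the 5 other listed genes lie left of it, between -1.02 and -2.73.

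SDP1, the main lipase of the oil body in seedlings, was lower in EIN2C-EIN3DB and EIN2S645A. SDP1 (AT5G04040, chromosome 5, 1089342 to 1093179, TAIR10) had 17.5 FPKM in EIN2C-EIN3DB, with a log2 fold over Col of -1.02 in the authors' deposited table (q = 0.000185). In EIN2S645A SDP1 had 8.45 FPKM and a log2 fold of -1.70 in the authors' deposited table (q = 0.000224). SDP1 was not listed in EIN2C-EIN3DBK245N. The fold in EIN2C-EIN3DB lay just inside the limit of 2, and 97.3% of the 2889 lower genes in that table had a larger one. SDP1 was the least abundant of the listed members in both lines.

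The acyl-CoA synthetases LACS6 and LACS7, which do the same reaction in the peroxisome, were both higher in the fusion lines. LACS6 (AT3G05970, chromosome 3, 1786318 to 1791802, TAIR10) had 31.5 FPKM in EIN2C-EIN3DB, with a log2 fold of 1.99 in the authors' deposited table. It had 25.4 FPKM and a log2 fold of 2.09 in EIN2C-EIN3DBK245N, and 21.5 FPKM and a log2 fold of 1.80 in EIN2S645A, in the authors' deposited tables (q = 0.000185, 0.000315 and 0.000224 in the 3 lines). LACS6 thus stood 3.97, 4.26 and 3.49 times above Col. LACS7 (AT5G27600, chromosome 5, 9742576 to 9747005, TAIR10) had 24.8 FPKM and a log2 fold of 1.68 in EIN2C-EIN3DB, and 18.2 FPKM and a log2 fold of 1.65 in EIN2C-EIN3DBK245N, in the authors' deposited tables (q = 0.000185 and 0.000315). LACS7 was not listed in EIN2S645A, and whether its fold there differs from that in the fusion lines was not tested. Of the higher genes in each table, 30.9%, 23.1% and 54.0% had a larger fold than LACS6 in EIN2C-EIN3DB, EIN2C-EIN3DBK245N and EIN2S645A.

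Within beta-oxidation itself, the oxidase gene ACX2 was lower and the thiolase gene KAT2 was higher. ACX2 (AT5G65110, chromosome 5, 26009635 to 26012519, TAIR10), whose enzyme acts on long acyl chains, had 55.3 FPKM in EIN2C-EIN3DB and a log2 fold of -1.15 in the authors' deposited table (q = 0.000185). In EIN2S645A ACX2 had 24.9 FPKM and a log2 fold of -1.93 in the authors' deposited table (q = 0.000224), and it was not listed in EIN2C-EIN3DBK245N. KAT2 (AT2G33150, chromosome 2, 14047478 to 14051140, TAIR10) had 309.8 FPKM in EIN2C-EIN3DB, 232 FPKM in EIN2C-EIN3DBK245N and 234 FPKM in EIN2S645A in the authors' deposited tables. The log2 folds of KAT2 over Col were 1.35, 1.34 and 1.31 in the authors' deposited tables (q = 0.000185, 0.000315 and 0.000224), or 2.55, 2.54 and 2.48 times Col. The 3 folds of KAT2 ran from 1.31 to 1.35, with no test between lines. ACX2 had no value in EIN2C-EIN3DBK245N, and its folds in EIN2C-EIN3DB and EIN2S645A were not tested against each other. ACX1, an oxidase of medium and long chains, and MFP2, which carries out the steps between oxidase and thiolase, were listed in no table.

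ICL, MLS and PCK1 were lower in EIN2S645A, and of the 3 only ICL was listed in another line. ICL (AT3G21720, chromosome 3, 7652487 to 7656011, TAIR10) had 654 FPKM in EIN2C-EIN3DBK245N and a log2 fold of -1.79 in the authors' deposited table (q = 0.000315). In EIN2S645A ICL had 350.0 FPKM and a log2 fold of -2.73 in the authors' deposited table (q = 0.000224), which is 6.64 times lower than Col and the largest fold of any member in any table. ICL was not listed in EIN2C-EIN3DB. MLS (AT5G03860, chromosome 5, 1032103 to 1034973, TAIR10), which takes up the glyoxylate that ICL makes, had 49.7 FPKM in EIN2S645A and a log2 fold of -2.27 in the authors' deposited table. PCK1 (AT4G37870, chromosome 4, 17802694 to 17806539, TAIR10) had 121 FPKM in EIN2S645A and a log2 fold of -2.08 in the authors' deposited table (q = 0.000224 for both genes). MLS and PCK1 were listed in neither fusion line. Of the 4003 lower genes in EIN2S645A, 13.6% had a larger fold than ICL, 23.2% a larger one than MLS and 29.2% a larger one than PCK1. The median log2 fold of the 5 lower members in EIN2S645A was -2.08, beside -1.67 over all lower genes of that table. The 2 higher members there had a median of 1.56, beside 1.89 over all higher genes. In EIN2C-EIN3DB the 2 lower members had a median of -1.08, beside -1.41 over all lower genes, and the 3 higher members 1.68, beside 1.60. In EIN2C-EIN3DBK245N the 3 higher members had a median of 1.65, beside 1.51 over all higher genes. These medians rest on few genes and were not tested.

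The members differed widely in level within a line. In EIN2S645A the order from high to low was ICL, KAT2, PCK1, MLS, ACX2, LACS6 and SDP1, and with 1 pooled value each it cannot be said which neighbours differ beyond their spread. ICL stood above 93.2% of the genes in that table by FPKM, KAT2 above 90.7% and PCK1 above 85.1%, while SDP1 stood above 43.2%. In EIN2C-EIN3DB the order was KAT2, ACX2, LACS6, LACS7 and SDP1, and KAT2 stood above 95.8% of the listed genes. In EIN2C-EIN3DBK245N ICL stood above 98.3% and KAT2 above 95.4% of the listed genes. ICL therefore remained an abundant transcript in both lines that listed it as lower. The median FPKM of all listed genes was 11.9, 11.0 and 11.7 in EIN2C-EIN3DB, EIN2C-EIN3DBK245N and EIN2S645A.

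**Figure D2:**
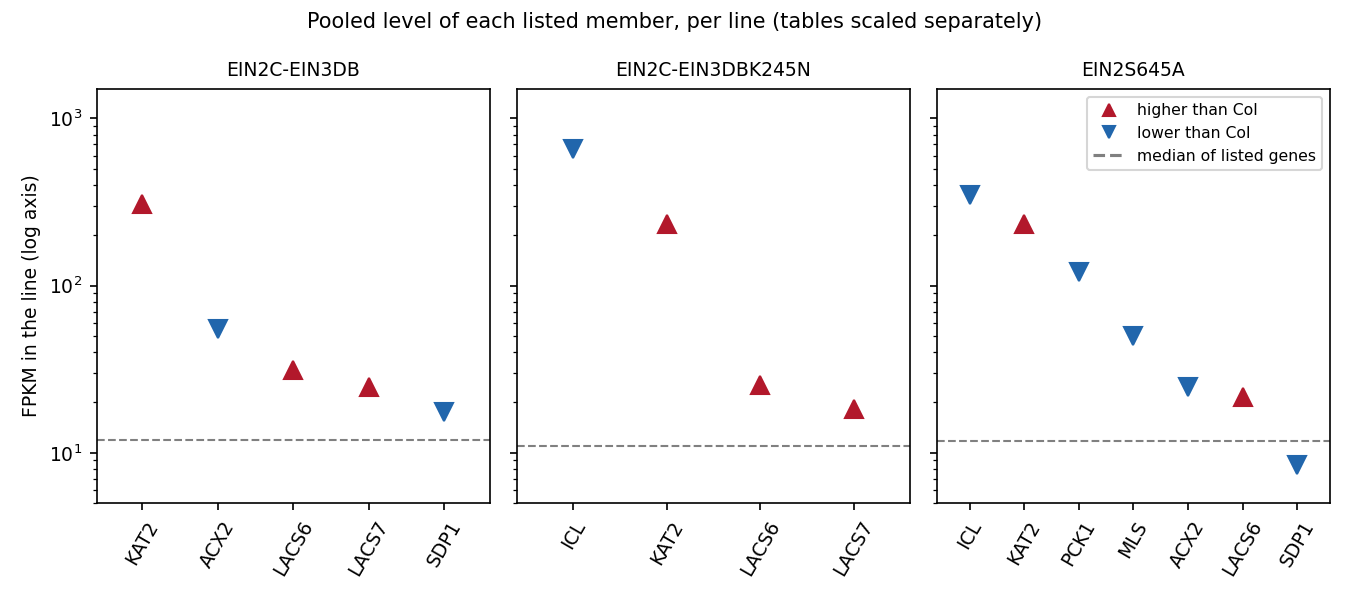
Pooled FPKM (log axis) of each listed member in EIN2C-EIN3DB, EIN2C-EIN3DBK245N and EIN2S645A, in order of level within each line. Upward triangles are genes higher than Col, downward triangles genes lower than Col, and the dashed line is the median of all genes in that table. ICL leads in both lines that list it, at 654 and 350.0 FPKM, and only SDP1 in EIN2S645A, at 8.45 FPKM, lies under the dashed line.

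LACS6 and KAT2, listed in all 3 tables, were compared with the 1824 genes that have a finite log2 fold in all 3. Likeness was the Euclidean distance between the 3 log2 folds, over 3 lines that share Col. The nearest gene to KAT2 was ACX4 (AT3G51840), the oxidase of short acyl chains, at a distance of 0.027. ACX4 had log2 folds of 1.35 in EIN2C-EIN3DB and 1.32 in EIN2C-EIN3DBK245N, was also higher in EIN2S645A, and had levels of 205, 151 and 154 FPKM in the 3 lines in the authors' deposited tables. AT5G64130 and AT3G05230 followed KAT2 at distances of 0.062 and 0.094. The nearest genes to LACS6 were RD28 (AT2G37180), an aquaporin gene, at 0.145, SMT1 (AT5G13710), a sterol methyltransferase gene, at 0.194, and AT1G05310 at 0.199.

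A further 65 genes of oil mobilisation and peroxisomes were read from lists of their known roles. In each list and line most genes had no value, except among the 3 regulators in EIN2S645A. The shares of all genes called in each direction, given above for the 10 members, apply to these lists too. The counts below are out of every gene of a list, listed or not. The shares among genes listed in any table leave out genes with no value, so those shares and the counts are not on the same base. Whether a list stands apart was not tested, so the counts are given as values of single genes and not as changes of the lists. A list of 19 genes of fatty acid import and beta-oxidation left out the members, such as ACX2, and took in catalase genes. Of the 19, 5 were higher and 0 lower in EIN2C-EIN3DB, 4 and 0 in EIN2C-EIN3DBK245N, and 3 and 2 in EIN2S645A. In EIN2C-EIN3DB the authors' deposited table lists AT1G01710 at a log2 fold of 1.44, ACX4 at 1.35, KAT1, a thiolase gene related to KAT2, at 1.31, and IBR1, a dehydrogenase/reductase gene needed for the response to indole-3-butyric acid, at 1.11. The same 4 genes stood at log2 folds of 1.96, 1.32, 1.14 and 1.03 in EIN2C-EIN3DBK245N in the authors' deposited table. In EIN2S645A PXA1, the transporter gene for fatty acid import into the peroxisome, stood at a log2 fold of -1.45 and the catalase gene CAT2 at -1.32 in the authors' deposited table, against 1.40 for IBR1, and ACX4 was higher there too.

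Of 8 oil body and glycerol genes, SDP1L, the closest relative of SDP1, was the only one lower, and it was lower in all 3 lines. SDP1L had 4.25, 3.24 and 2.17 FPKM and log2 folds of -1.04, -1.02 and -1.64 in EIN2C-EIN3DB, EIN2C-EIN3DBK245N and EIN2S645A in the authors' deposited tables. AT3G05500 was higher in EIN2S645A, at a log2 fold of 2.12 in the authors' deposited table, and was not listed elsewhere.

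A list of 17 other genes, mainly of the glyoxylate cycle, gluconeogenesis and carriers, also held HPR1, which belongs to photorespiration. Of the 17, 3 were higher in EIN2C-EIN3DB, 1 was higher in EIN2C-EIN3DBK245N and 1 was lower in EIN2S645A. HPR1, a peroxisomal reductase gene of photorespiration, stood at log2 folds of 1.93 in EIN2C-EIN3DB and 1.68 in EIN2C-EIN3DBK245N in the authors' deposited tables. It was the only gene of this list that was higher in EIN2C-EIN3DBK245N. FBP, the cytosolic fructose bisphosphatase gene on the way to sucrose, stood at 1.26 and the peroxisomal carrier gene PXN at 1.16 in EIN2C-EIN3DB in the authors' deposited table. In EIN2S645A PNC1, which encodes a carrier of adenine nucleotides into the peroxisome, stood at a log2 fold of -1.68 in the authors' deposited table. The peroxisomal citrate synthase genes CSY2 and CSY3 and the malate dehydrogenase genes PMDH1 and PMDH2 were listed in no line.

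Of 18 peroxisome assembly genes, 3 were higher and 0 lower in EIN2C-EIN3DB, 2 and 1 in EIN2C-EIN3DBK245N, and 4 and 3 in EIN2S645A. PEX11E, PEX11D and PEX11C, of the family that divides peroxisomes, stood at log2 folds of 1.25, 1.17 and 1.14 in EIN2C-EIN3DB in the authors' deposited table. In EIN2C-EIN3DBK245N PEX11C and PEX11D stood at log2 folds of 1.31 and 1.05 in the authors' deposited table. In EIN2S645A PEX4, a ubiquitin-conjugating enzyme gene, stood at a log2 fold of 2.23 and PEX7, a receptor gene for peroxisomal import, at 1.97 in the authors' deposited table. Among 3 transcription factor genes of seed reserve use, ABI4 was higher in EIN2C-EIN3DB at a log2 fold of 3.10 in the authors' deposited table. ABI3 and ABI5 were lower in EIN2S645A at -2.11 and -1.08 in the authors' deposited table. The ABI3 fold rests on a very low level, 0.508 FPKM in that line (q = 0.0345).

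**Figure D3:**
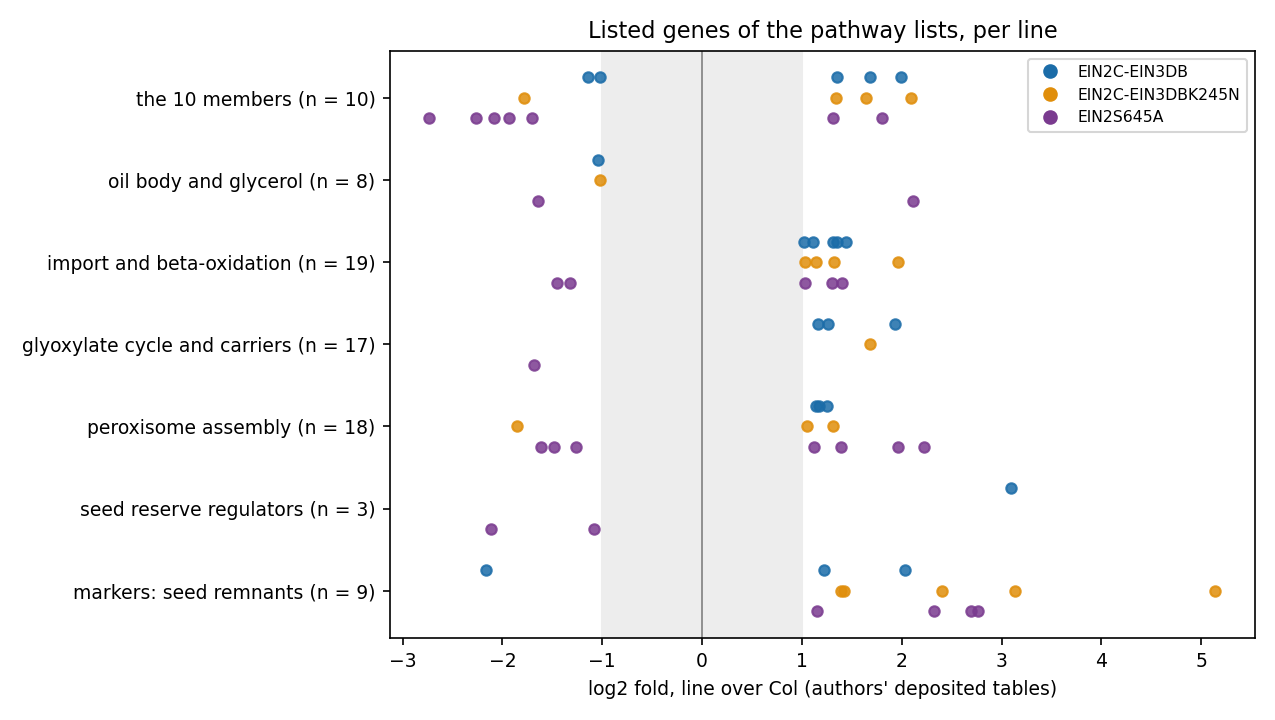
Log2 fold against Col of every listed gene of the members, the 5 pathway lists and the seed storage and oleosin markers, with 1 point per gene and colour by line. The n beside each name counts all genes of the list, listed or not, and the grey band marks folds under 2. The import and beta-oxidation list leaves out the members and has no point left of the band in the fusion lines. The member ACX2, an oxidase gene of beta-oxidation, does lie there in EIN2C-EIN3DB, at -1.15. In EIN2S645A 2 points of the list lie there, the transporter gene PXA1 at -1.45 and the catalase gene CAT2 at -1.32. Genes with no value are not drawn.

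Markers of seed tissue and of greening moved in the same tables. Of all protein-coding nuclear genes, 9.93% were called higher and 9.7% lower in EIN2C-EIN3DB, 6.41% and 6.33% in EIN2C-EIN3DBK245N, and 11.8% and 13.9% in EIN2S645A. These shares, and the larger ones given above for genes listed in any table, stand beside all marker counts below. Of 9 oleosin and seed storage protein genes, 2 were higher and 1 lower in EIN2C-EIN3DB, 5 and 0 in EIN2C-EIN3DBK245N, and 4 and 0 in EIN2S645A. The log2 folds of the listed ones ran between -2.17 and 2.03 in EIN2C-EIN3DB, 1.40 and 5.14 in EIN2C-EIN3DBK245N, and 1.15 and 2.76 in EIN2S645A in the authors' deposited tables. In EIN2S645A ICL, MLS, PCK1, ACX2 and SDP1 were thus lower while OLEO1, OLEO2, CRC and SESA3 were higher. Of 8 genes that mark exposure to light, 7 were higher and 0 lower in each line, with log2 folds of 2.70 to 12.58 in the authors' deposited tables. These 7 were all light-harvesting genes, and the Rubisco gene of the list, RBCS1A, was listed in no line. PORA, whose reductase makes chlorophyll precursor in etiolated seedlings, was lower in each line, at log2 folds of -4.11, -3.17 and -3.16 in EIN2C-EIN3DB, EIN2C-EIN3DBK245N and EIN2S645A in the authors' deposited tables. The part of these markers in the folds of the pathway was not tested. STM, a marker of the shoot meristem, was higher in all 3 lines, and the root markers SCR and WER were not listed. Of 3 root hair markers, EXPA7 and RHD6 were higher in EIN2C-EIN3DB, at log2 folds of 3.62 and 3.10 in the authors' deposited table, and none was listed in the other lines. The part of root hairs in the folds of that line was not tested.

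The EIN2 antibody ChIP placed peaks at 5 of the 10 genes in at least 1 of 6 libraries, namely ICL, PCK1, ACX1, KAT2 and LACS6, beside 7.84% of all protein-coding nuclear genes. A peak counted where it lay in the gene or within 1000 bp of either end. Peaks were called by the authors for each library alone against its input. Fold enrichment is the authors' ratio of tags over local input at the summit. In ein3-1eil-1, ethylene replicate 1 had a peak at 1 member and replicate 2 at 0, beside 0.554% and 0.565% of all protein-coding nuclear genes. Air replicate 1 in ein3-1eil-1 had a peak at 1 member and air replicate 2 at 0, beside 0.681% and 0.736% of genes. There were 0 members with a peak in both replicates of a treatment, beside 0.0947% of genes in ethylene and 0.273% in air. In Col-0, the ethylene library had peaks at 3 members, beside 4.82% of genes, and the library titled air had a peak at 1, beside 3.1%.

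Among the 10 members, ICL carried the most peaks. In Col-0 ethylene, 4 peaks lay inside the gene, at chromosome 3, 7653252 to 7653327, 7653489 to 7653568, 7653671 to 7653842 and 7654301 to 7654780 (TAIR10). Their fold enrichments were 3.26, 4.03, 4.05 and 4.31, their pileups 13, 16, 16 and 17 tags and their -log10 p values 5.02, 7.24, 7.27 and 8.07. Together they covered 808 bp, or 22.9% of the 3525 bp locus. In that library 58 genes, 0.211% of protein-coding nuclear genes, had 4 or more peaks, a cutoff taken from ICL itself. The number of peaks is not a measure of their strength. Of the 1510 peaks of that library, 8.81% had a larger fold enrichment than the strongest peak in ICL. In ein3-1eil-1, air replicate 1 had 1 peak in ICL, at 7653684 to 7653760, with a fold enrichment of 2.85 and a -log10 p of 6.14. This peak lay wholly inside the peak at 7653671 to 7653842 of Col-0 ethylene, and the summits were 15 bp apart. No peak was called in ICL in either ein3-1eil-1 ethylene library, in air replicate 2 or in the Col-0 library titled air.

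PCK1 had 2 peaks in Col-0 ethylene and none in the other 5 libraries. The stronger lay at chromosome 4, 17805426 to 17805758, with a fold enrichment of 4.84, a pileup of 27 tags and a -log10 p of 12.5, and 5.17% of the 1510 peaks of that library had a larger fold enrichment. It was the only peak at a member with a -log10 q of at least 5, at 9.04. The other lay at 17804612 to 17804735 with a fold enrichment of 3.19 and a -log10 p of 6.12. ACX1 had 1 peak in Col-0 ethylene, at chromosome 4, 9424447 to 9424794, across an end of the gene, with a fold enrichment of 2.99 and a -log10 p of 5.06.

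KAT2 had 1 peak in the Col-0 library titled air, at chromosome 2, 14047393 to 14047480, with its summit 41 bp outside the locus, a fold enrichment of 3.09 and a -log10 p of 5.67. LACS6 had 1 peak in ein3-1eil-1 ethylene replicate 1, at chromosome 3, 1790599 to 1790690, inside the gene, with a fold enrichment of 3.15 and a -log10 p of 5.60. In their own libraries, 54.0% of peaks had a larger fold enrichment than that of KAT2 and 18.4% a larger one than that of LACS6. SDP1, LACS7, ACX2, MFP2 and MLS had no peak in any library. Of the 3 members with ethylene peaks in Col-0, ICL was lower in EIN2C-EIN3DBK245N and EIN2S645A, PCK1 was lower in EIN2S645A and ACX1 was listed in no table, and none of the 3 was listed in EIN2C-EIN3DB. These peaks come from the Col-0 background in ethylene and the RNA from ein3-1eil-1 in air, so they are not matched samples.

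**Figure D4:**
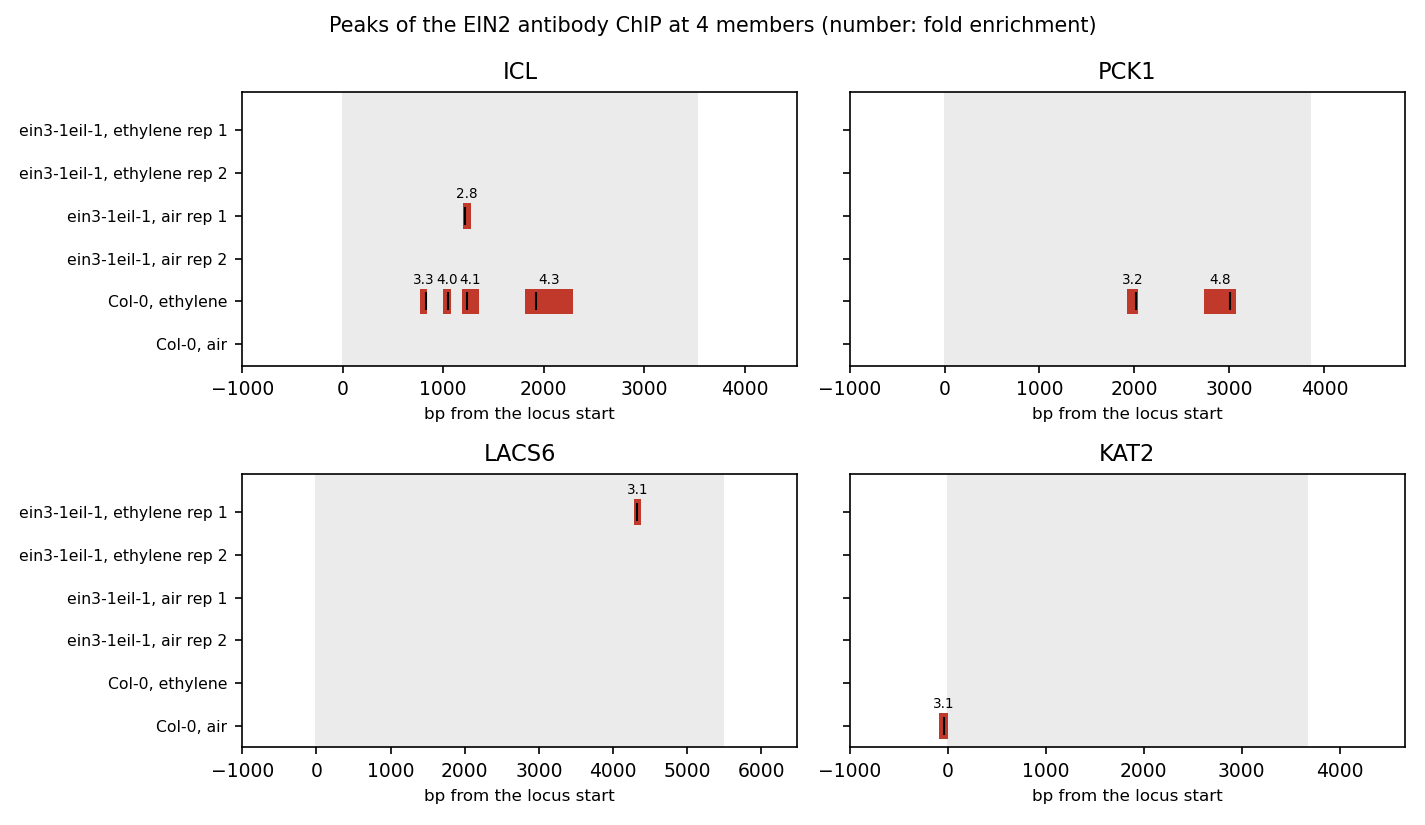
Peaks at ICL, PCK1, LACS6 and KAT2 in the 6 ChIP libraries, 1 row per library, against the distance in bp from the locus start (the lower coordinate, strand not shown). Grey marks the locus, red bars the peaks, black ticks their summits and numbers their fold enrichment. Col-0 ethylene has 4 peaks in ICL and 2 in PCK1, and the single ein3-1eil-1 air peak in ICL lies over one of the 4.

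ICL and PCK1 are among the more abundant transcripts listed in EIN2S645A, and peaks were found more often at the abundant genes listed there. Of genes in the EIN2S645A table with at least 100 FPKM in the line, 12.9% (159 of 1229) had a peak in Col-0 ethylene, against 6.31% (368 of 5831) of those under 100 FPKM. In the Col-0 library titled air these shares were 10.3% and 3.41%, and in ein3-1eil-1 air replicates 1 and 2 they were 2.60% and 0.583%, and 2.85% and 0.635%. These levels come from EIN2S645A in ein3-1eil-1 and air, and the peaks from EIN2C-EIN3DB, so the samples are not matched. Neither ICL nor PCK1 has a listed level in EIN2C-EIN3DB. The part of transcript level in the peaks at ICL and PCK1 was not tested. Among the 65 further pathway genes, the neighbouring catalase genes CAT1 and CAT3 had peaks in 5 of 6 libraries, all but ein3-1eil-1 ethylene replicate 1. In Col-0 ethylene 1 peak at chromosome 1, 7143201 to 7147230, served both, with a fold enrichment of 7.49 and a -log10 p of 25.7. AIM1, KAT5, ACO1 and PPDK each had a peak in Col-0 ethylene, ACX6 in ein3-1eil-1 ethylene replicate 1 and LON2 in the Col-0 library titled air, with fold enrichments of 2.39 to 3.23.

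**Figure D5:**
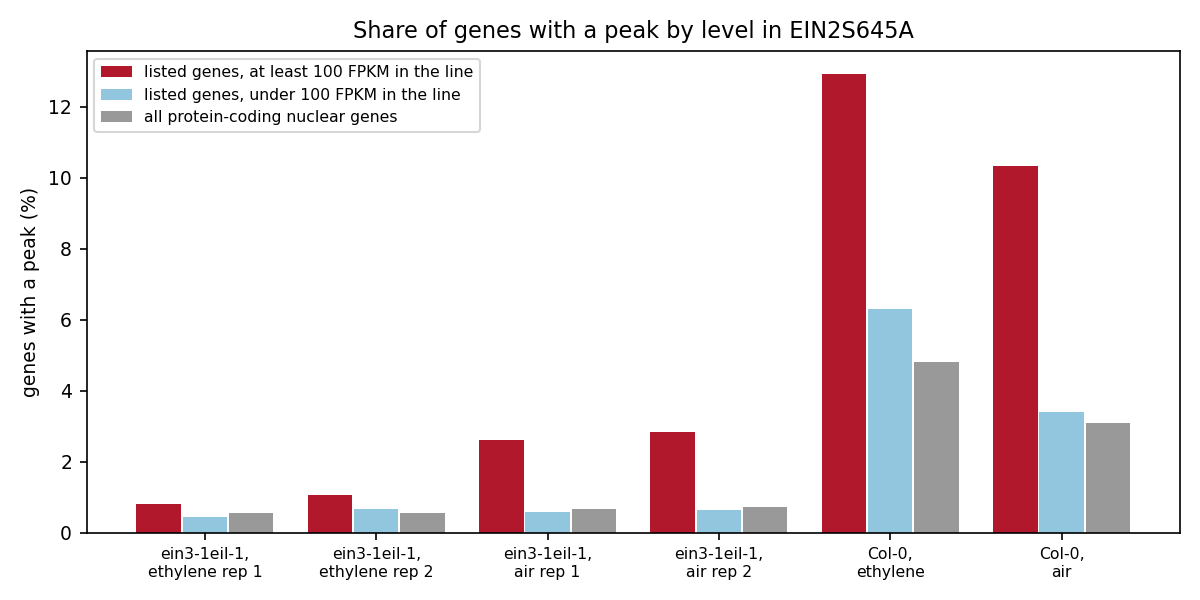
Percent of genes with a peak in the gene or its 1000 bp flanks in each ChIP library, for genes of the EIN2S645A table with at least 100 FPKM (red) and under 100 FPKM (blue) in that line, and for all protein-coding nuclear genes (grey). The red bar is the highest in every library, at 12.9% in Col-0 ethylene and 0.814% in ein3-1eil-1 ethylene replicate 1.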

How the data were processed

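RNA values are FPKM, deposited by the authors as 1 value per line. The submitters' processing notes name Cuffdiff 2.2.1 and the TAIR10 build. The log2 folds, p-values and q-values are the authors', per the file headers, and the smallest p-value is 5e-05. The EIN2C-EIN3DBK245N fold was turned to line over Col. The 3 Col value columns belong to no sample and were not used, and tables were scaled separately. Peaks, with their pileup signal, fold enrichment (a ratio) and -log10 p and q, came from the authors' MACS2 runs (version 2.1.0.20150603, 1 run for each library, p limit 0.001), per the file headers. Their comment says that q was not calculated although the deposited column is filled. Replicates in ein3-1eil-1 share 1 input per treatment.

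Members and lists were chosen with earlier results of these data known. Peaks were placed with a TAIR10.1 gene table that gives no strand. It held 98.9% of the 10057 listed identifiers and symbols for 81 of 89 list genes, and 2 more under another spelling. Deposited locus starts count from 0 (535 of 1834 loci with a matching end start 1 base lower than in the gene table, 11 start equal), so 1 was added. Named genes were all members, up to 4 genes per list and table by fold, and 3 nearest genes; a few list genes that this rule names are not reported here. No test was run. Placement was tested on simulated data. Intervals for replicates are not possible, and no label says that replicates were separate cultures. Python 3.11.15 and pandas 2.3.3 were used.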

Additional observations from a re-analysis of the deposited data

How the results depend on the processing

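With a fold of at least 4, the higher members numbered 0 in EIN2C-EIN3DB, 1 in EIN2C-EIN3DBK245N (LACS6) and 0 in EIN2S645A, and the lower members 0, 0 and 3 (ICL, MLS and PCK1). A minimum of 5 FPKM changed none of these counts. With a -log10 q of at least 5, members with a peak numbered 1 in Col-0 ethylene (PCK1), 0 in the Col-0 library titled air, and 0 in ein3-1eil-1 ethylene replicate 1 and air replicate 1. With a fold enrichment of at least 3, ein3-1eil-1 air replicate 1 had 0 and Col-0 ethylene 2, since the ACX1 peak stands at 2.99. With either ein3-1eil-1 replicate left out, only the count of the other library remains, so no count in both replicates exists. That count was 1 member without replicate 2 and 0 without replicate 1, in ethylene and in air alike. Without the Col-0 libraries 2 members (ICL and LACS6) had a peak, where all 6 libraries gave 5, and without the ein3-1eil-1 libraries 4 had one. That choice, and placement by the deposited loci, were added after the data were seen. Flanks of 0 or 2000 bp and the deposited loci left the count of members in each library as it was, and a stricter overlap between replicate peaks left 0 members with a peak in both. No paired analysis was possible because the RNA tables hold 1 pooled value per line and no test was run. The alternatives on promoter letters and on peroxisome targeting signals were not run, since no sequences were at hand. Duplicate removal left the Col-0 libraries with the fewest tags, so a peak that is absent there or elsewhere may lie below detection.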
